A study of Mus musculus with 49 samples.

Results

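The T-cell receptor (TCR) complex and its proximal signalling chain were followed through 9 genes of the 23992 gene symbols in the files. They are the CD3 chains *Cd3d*, *Cd3e*, *Cd3g*, and *Cd247*, the CD8 co-receptor chains *Cd8a* and *Cd8b1*, the kinases *Lck* and *Zap70*, and the adaptor *Lat*. They were chosen by name, with earlier results of these data known, and the longest transcript of each symbol was read in every group. The cells were CD8+ T cells freshly isolated from spleens of C57BL/6J mice between 8 and 24 weeks old. Mice of the *Stat5a* line were WT or homozygous knockin (KI) for STAT5A Y694F, and mice of the *Stat5b* line were WT or homozygous KI for STAT5B Y699F, changes that replace with phenylalanine the tyrosine that IL-2 signalling phosphorylates. Each KI was compared with WT cells of its own line. Cells were collected at 0 hr or after culture with recombinant human IL-2, at 500 IU/ml, for 4, 24, or 48 hr. Each of the 16 groups of line, genotype, and time has 3 RNA-seq libraries, except the *Stat5a* KI cells at 4 hr, for which 2 were used. The KI alleles were made by CRISPR/Cas9 and are in the germline, so every cell of a KI mouse carries it, and the sources used here do not say whether the libraries of a group come from separate mice. The p-values therefore measure the spread between these libraries, which may be technical.

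The TCR recognizes peptide on MHC molecules but has no signalling tail of its own. The CD3 chains and the CD247 (zeta) dimer carry the tyrosine motifs that LCK phosphorylates once CD8 has brought it to the receptor. ZAP70 docks on those phosphotyrosines and phosphorylates LAT, the membrane scaffold from which calcium, RAS, and protein kinase C signalling branch. IL-2 signals through a separate receptor, with JAK kinases and STAT5.

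The 47 libraries held 17369112 to 60200653 reads on the longest transcripts (median 41410666). Levels are given as scaled RPKM, the reads of a gene divided by its transcript length and by the TMM-scaled size of the library, so that genes can be compared per length. The deposited RPKM is scaled to all mapped reads instead, and the share of mapped reads that fell on the longest transcripts ran from 44.86 to 84.43% over these libraries. In a further library, the third of *Stat5a* KI cells at 4 hr, that share was 5.68% with 1028515 reads, and it was left out. A pair of the 47 libraries stood apart within their groups. Among WT cells of the *Stat5a* line, replicate 2 at 4 hr had the lowest depth and the lowest share, 44.86%, and was unlike its group in single genes. Its *Cd3e* level was 401 against 208 and 246 in the other replicates, while its *Cd3d* level was 109.2 against 181 and 207. Replicate 3 at 0 hr, also of WT cells of the *Stat5a* line, had higher levels of all 9 genes than the other replicates and a lower sum of B-cell markers, 86.7 against 226 and 247. In the *Stat5a* line, results whose test outcome changed without this pair are given with and without it, as values or counts. Most other values there are given with it. The shares of all genes that passed come from the fit of the 47 libraries, and none was computed for the fit without the pair.

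The genes lie in a few neighbourhoods of the mouse genome (GRCm38, the build of the files). *Cd3g* (chr9:44969572-44980431, minus strand) and *Cd3d* (chr9:44981769-44987052, plus strand) are transcribed away from each other, with 1355 bases between the starts of their rows, and *Cd3e* (chr9:44998735-45009663, minus strand) is next to them. *Cd8b1* (chr6:71322788-71337492) and *Cd8a* (chr6:71373427-71379171), both on the plus strand, are 35935 bases apart. *Cd247* (chr1:165779952-165871153, plus strand) and *Zap70* (chr1:36761798-36782821, plus strand) are on chromosome 1, *Lck* (chr4:129548344-129573641, minus strand) on chromosome 4, and *Lat* (chr7:126363827-126369705, minus strand) on chromosome 7. The exons of 7 of the 9 rows overlap no exon of another RefSeq gene, *Lck* overlaps the microRNA gene *Mir8119* by 25 bases, and the last exons of the *Cd247* row overlap *Pou2f1* on the other strand. RefSeq promoters (GRCm38.p6, 250 bases before to 50 after a start) were listed for 8 of the 9 genes, not for *Cd8b1*. The 250 bases before the start of the divergent *Cd3g* and *Cd3d* pair and of *Lat*, which moved furthest with IL-2, are printed 5′ to 3′ on the strand of the gene, with capitals for the letters of a GAS (TTCNNNGAA), RUNX (TGTGGT), or ETS (AGGAAG) motif on either strand that lies wholly before the start.
Cd3g, chr9:44980432-44980681, minus strand: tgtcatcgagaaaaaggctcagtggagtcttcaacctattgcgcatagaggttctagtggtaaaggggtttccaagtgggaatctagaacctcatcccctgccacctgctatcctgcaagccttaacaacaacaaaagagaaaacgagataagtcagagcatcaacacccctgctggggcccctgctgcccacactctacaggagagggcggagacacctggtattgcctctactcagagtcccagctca
Cd3d, chr9:44981536-44981785, plus strand: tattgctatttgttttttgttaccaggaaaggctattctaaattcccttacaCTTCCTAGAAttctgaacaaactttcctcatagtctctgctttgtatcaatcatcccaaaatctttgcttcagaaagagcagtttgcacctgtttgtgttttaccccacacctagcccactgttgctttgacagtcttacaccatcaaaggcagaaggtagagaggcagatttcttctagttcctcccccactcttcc
Lat, chr7:126369569-126369818, minus strand: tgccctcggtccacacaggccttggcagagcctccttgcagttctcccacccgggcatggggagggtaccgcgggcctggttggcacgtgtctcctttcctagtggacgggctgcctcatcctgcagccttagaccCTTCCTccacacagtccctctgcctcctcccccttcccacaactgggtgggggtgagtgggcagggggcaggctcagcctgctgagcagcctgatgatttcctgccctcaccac

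Among the 8 genes, GAS letters, the type of site that STAT dimers bind, were found in 1, *Cd3d*, 197 bases before the start, overlapping an ETS match. GAS letters were in 8.3% of all 32851 RefSeq promoter windows. ETS letters were in the windows of 6 of the 8 genes and in 35.4% of all windows, and RUNX letters in 3 of 8 (*Lat*, *Lck*, and *Zap70*) and in 16.8% of all. The other motifs searched on both strands were the TCF letters CTTTGA (3 of 8 genes, 16% of windows), the GATA letters AGATAA (1 of 8, 11.2%), and the E-box CAGNTG (8 of 8, 51.4%). *Lck* and *Zap70* have more than 1 listed start, and a match in any of their windows was counted.

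*Cd247* needs care because its 5 rows differ in their last exons. The longest row, 2957 bases, is the non-coding variant kappa, while the zeta chain of the TCR is encoded by a row of 1686 bases. All rows share 7 exons of 577 bases in all, apart from 3 bases that are missing in the theta row. Zeta then reads into an exon of 1109 bases (chr1:165861004-165862112) that no other row holds, and the others continue to exons further downstream. The coding part that only zeta has, and the longer coding part that the eta row has in its place, are printed with the stop codon in capitals.
Cd247 zeta, chr1:165861004-165861069: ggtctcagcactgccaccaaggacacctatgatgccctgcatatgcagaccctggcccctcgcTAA
Cd247 eta, chr1:165866655-165866846: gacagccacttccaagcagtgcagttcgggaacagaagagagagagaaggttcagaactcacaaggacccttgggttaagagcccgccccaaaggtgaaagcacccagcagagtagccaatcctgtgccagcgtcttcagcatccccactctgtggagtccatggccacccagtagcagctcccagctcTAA
Over the 47 libraries 516864 reads were counted on the zeta row and 185249 on the kappa row. At least 63.7 to 69.3% of the zeta reads of a library (median 65.7%) lay outside the shared exons, and the zeta exon makes up 65.8% of the row. The exons that kappa does not share with zeta are 80.5% of its length, while its count exceeded that of the least counted row by 4.72% of its reads. Its level per length lay far below that of zeta. The kappa row count includes reads on the exons shared with zeta, so it is not a measure of the kappa variant alone. Both rows are given where their calls differ. The fold changes of the zeta row come from a fit with the most counted row of every symbol. Its scaling therefore differs from that of the kappa row as well.

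**Figure D1:**
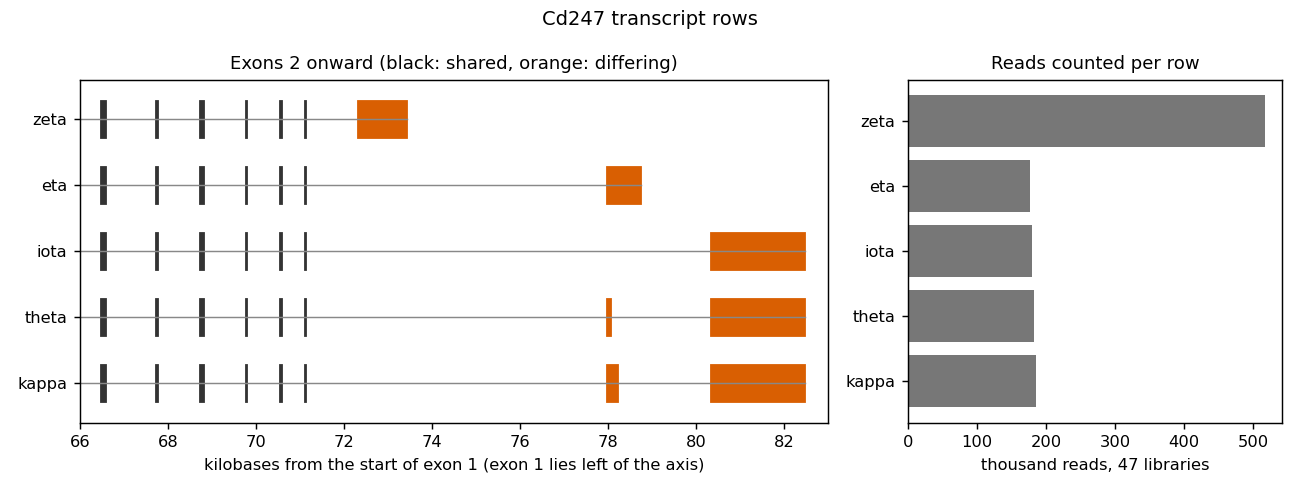
Exon map of the 5 Cd247 rows, in kilobases from the start of exon 1, which lies left of the axis, and the reads counted on each row over 47 libraries. The exons in black are shared, those in orange differ, and the zeta row has 516864 reads against 185249 on the kappa row.

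All 9 genes were abundant. Their counts per library ran from 1004 to 67198, and all 9 passed the filter on low counts, as did 15566 symbols in all. By mean scaled RPKM over the 47 libraries, *Cd8b1* ranked highest at 463, followed by *Lck* (344), *Cd3g* (315), *Cd8a* (298), *Cd3e* (277), *Lat* (242), and *Cd3d* (227), all within the first 264 of the 23992 symbols. *Zap70*, at 78.2, ranked 896, and the kappa row of *Cd247*, at 31.6, ranked 2615. The zeta row lay between 116.8 and 184 in every library. The CD8 co-receptor of the labelled cell type far exceeded that of helper T cells. At 0 hr in WT cells *Cd8a* was at 229, 224, and 299 in the *Stat5a* line, where *Cd4* was at 13.9, 20.3, and 9.70.

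**Figure D2:**
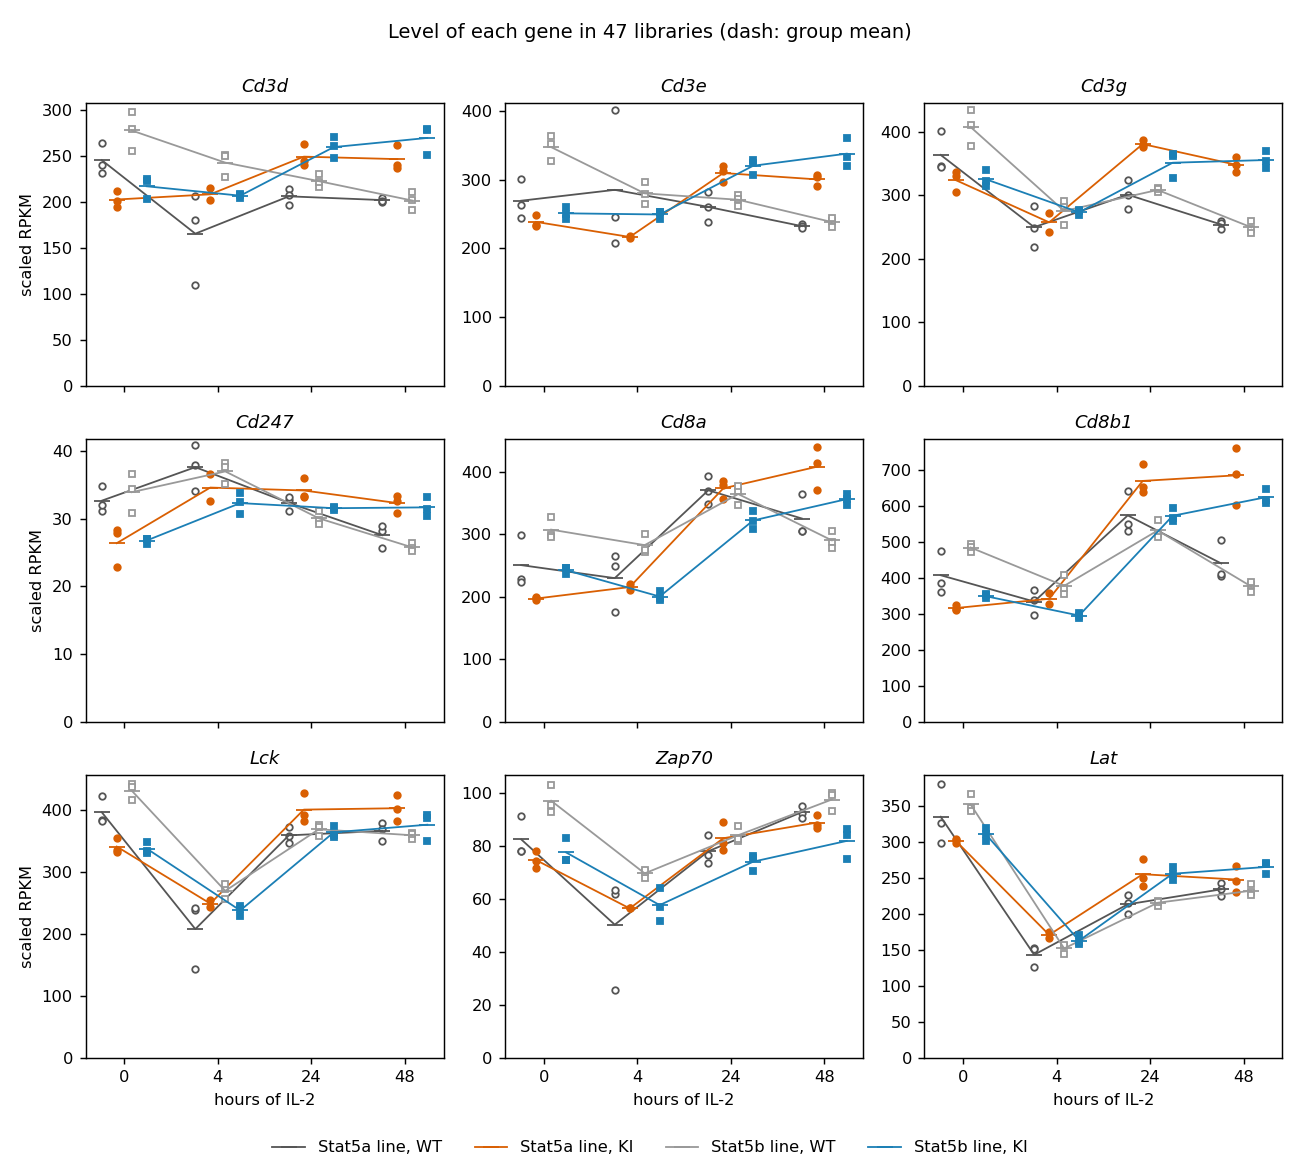
Scaled RPKM of each gene (y axis, from 0) in every library against hours of IL-2, with circles for the Stat5a line, squares for the Stat5b line, open symbols for WT, filled symbols for KI, and a dash and line for group means. KI means lie below WT means at 0 hr in all 9 panels, and above them at 48 hr in both lines in all panels except Zap70.

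The first question was how these transcripts change over culture with IL-2 in WT cells. All groups were compared with cells of 0 hr, and none is labelled as held in culture without IL-2 for the same time, so an effect of IL-2 and an effect of time in culture cannot be told apart. At 4 hr most of the chain fell, and *Lat* and *Lck* fell most. In the *Stat5a* line 6 of the 9 genes were lower and 1 was higher than at 0 hr at an adjusted p of at most 0.05 (edgeR's quasi-likelihood test, Benjamini-Hochberg adjusted over all 15566 genes), where 58.4% of all genes passed. Of the *Stat5b* line 6 were lower and 0 higher, where 49.5% passed. The median log2 fold change of the 9 was −0.54 and −0.36, against 0.01 and −0.03 over all genes. Without the pair of libraries that stood apart 5 genes were lower and 2 higher in the *Stat5a* line, with a median of −0.29 against −0.06 over all genes. *Cd8b1* no longer passed there, and *Cd8a* was higher, at 0.18 (adjusted p = 0.0443). Only *Lat* changed at least 2-fold among the 9, in both lines, where 21.4 and 15.7% of all genes did. At 24 hr 2 genes were higher and 3 lower in the *Stat5a* line and 1 was higher and 6 lower in the *Stat5b* line, against 59 and 59.6% of all genes in either direction, and at 48 hr the counts were 1 and 4, and 0 and 7, against 71.7 and 69.9%. The 24 hr counts leaned on single libraries. Fits that left out 1 library passed 3 to 4 of the 9 genes in the *Stat5a* line, with 3 without replicate 3 at 0 hr, and 3 to 6 in the *Stat5b* line, with 3 without replicate 2 or 3 at 0 hr and 4 without replicate 1 or 3 at 24 hr. Each of these fits lost *Cd3d* (−0.25) in the *Stat5a* line and *Lck* (−0.23) in the *Stat5b* line. None of the 9 reached 2-fold at 24 or 48 hr by this test, although 5 (*Stat5a* line) and 7 (*Stat5b* line) had an adjusted p of at most 0.05 at each time, while 22.9 and 22.5% of all genes reached it at 24 hr and 36.6 and 35.3% at 48 hr.

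*Lat*, the scaffold, was at 326, 298, and 379.9 at 0 hr in WT cells of the *Stat5a* line and at 153.1, 125.7, and 150.7 at 4 hr. Its *Stat5b* line values were 347, 366, and 342 and then at 143.8, 154.8, and 156.9. Every library at 4 hr lay below every library at 0 hr, with log2 fold changes of −1.22 (SE 0.0728, adjusted p = 1.29e-16) and −1.21 (SE 0.0727, adjusted p = 2.02e-16). The *Stat5a* value was −1.04 without the pair of libraries that stood apart. It came back in part, to 225, 199, and 215 at 24 hr and 243, 234, and 225 at 48 hr in the *Stat5a* line and to 211, 218, and 217 and 229.5, 226, and 241 in the *Stat5b* line. At 48 hr it was still lower than at 0 hr, with log2 fold changes of −0.52 (SE 0.0717, adjusted p = 6.03e-08) and −0.60 (SE 0.0718, adjusted p = 2.34e-09).

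*Lck*, the kinase that starts the cascade, fell and recovered more fully. WT cells of the *Stat5b* line went from 442, 437, and 416 to 257, 272, and 280.2 at 4 hr and stood at 364, 354, and 361 at 48 hr. The log2 fold change was −0.68 (SE 0.0977, adjusted p = 3.12e-07) at 4 hr and −0.26 (SE 0.0973, adjusted p = 0.0161) at 48 hr, a call that was lost on leaving out any 1 of the 3 libraries at 0 hr. The *Stat5a* line libraries at 4 hr were at 239, 143.2, and 242, all below the 384, 383, and 424 of 0 hr, with a log2 fold change of −0.93 (SE 0.0981, adjusted p = 3.42e-10) that became −0.68 without the pair of libraries that stood apart. At 48 hr the value in that line, −0.11, did not pass (adjusted p = 0.292).

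*Zap70*, the kinase recruited to the receptor, followed the same course at a lower level. It went from 92.9, 102.8, and 95.2 at 0 hr to 67.9, 70.1, and 70.7 at 4 hr in the *Stat5b* line, a log2 fold change of −0.48 (SE 0.147, adjusted p = 0.0067), and was at 100.02, 93.0, and 99.2 at 48 hr, where the groups overlapped again. Libraries of the *Stat5a* line at 4 hr were at 61.7, 25.8, and 63.2. The log2 fold change of −0.71 (SE 0.148, adjusted p = 0.000111) leaned on replicate 2, and without the pair of libraries that stood apart it was −0.32 (adjusted p = 0.000503). At 48 hr its value in that line was 0.17 and did not pass (adjusted p = 0.299), but without that pair it was higher than at 0 hr, at 0.25 (adjusted p = 0.00211).

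Of the CD3 chains, which anchor and signal for the receptor, *Cd3g* fell at all 3 times in both lines, though its call at 24 hr in the *Stat5a* line was lost without replicate 3 at 0 hr. It was at 345, 344, and 401 at 0 hr and at 259.6, 246, and 256 at 48 hr in the *Stat5a* line, and at 377, 434, and 411 and 248, 260.4, and 241 in the *Stat5b* line. The groups did not overlap, and the log2 fold changes at 48 hr were −0.52 (SE 0.0744, adjusted p = 1.22e-07) and −0.71 (SE 0.0746, adjusted p = 1.24e-10). *Cd3d*, its divergent neighbour, fell at 48 hr by less, −0.28 and −0.46 (adjusted p = 0.0208 and 0.000291), from 256, 298, and 279.5 to 203, 210.3, and 192 in the *Stat5b* line. The *Stat5a* call of *Cd3d* was lost on leaving out any 1 of the 3 libraries at 0 hr. *Cd3e* fell in the *Stat5b* line, from 327, 363, and 351 to 239.7, 245, and 231, with a log2 fold change of −0.54 (SE 0.115, adjusted p = 7.93e-05). Its lower values there at 4 and 24 hr, −0.31 and −0.36, lost their calls in 4 and 2 of the 6 fits that left out 1 library, and at 24 hr *Cd3d* (−0.32) did in 2. For the *Stat5a* line the *Cd3e* value was −0.21 and did not pass (adjusted p = 0.0946), and at 4 hr its sign hung on replicate 2, since 0.08 became −0.20 without that library.

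*Cd247* was the exception among the receptor chains at 4 hr. Its zeta row stood at 146.4, 147.1, and 164 at 0 hr and at 171, 179, and 179 at 4 hr in the *Stat5a* line, where the groups did not overlap, and at 146.7, 173, and 159.2 and 167, 179, and 184 in the *Stat5b* line, where they did. The log2 fold changes of the zeta row were 0.27 (SE 0.0637, adjusted p = 0.000519) and 0.17 (SE 0.0636, adjusted p = 0.0228). The kappa row gave 0.20 and 0.12, of which only the first passed (adjusted p = 0.0154 and 0.148). The scaling of the zeta fit raised values at 4 hr by a median of 0.06 and 0.02. At 24 hr in the *Stat5b* line the kappa row was lower, at −0.17 (adjusted p = 0.0343), a call lost in 5 of the 6 fits that left out 1 library, and the zeta row was at −0.02 (adjusted p = 0.797). At 48 hr the kappa row was lower than at 0 hr, at −0.24 and −0.40 (adjusted p = 0.00263 and 6.99e-06, the first lost without replicate 3 at 0 hr). The zeta row was at 0.03 in the *Stat5a* line (adjusted p = 0.693) and at −0.15 in the *Stat5b* line (adjusted p = 0.0305). The scaling of its fit raised values by a median of 0.08 in each line. Its mean level in the *Stat5a* line was 152.6 at 0 hr and 147.3 at 48 hr, so the positive sign is not that of the levels.

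The CD8 chains, which bind MHC class I and carry LCK to the receptor, had their highest WT means at 24 hr. In the *Stat5a* line *Cd8a* went from 229, 224, and 299 at 0 hr to 393, 349, and 369 at 24 hr and 365, 305, and 306 at 48 hr, and *Cd8b1* from 361, 386, and 474 to 640.3, 529.8, and 549 and then 504, 406, and 409. The 24 hr libraries lay above all those of 0 hr, with log2 fold changes of 0.56 (SE 0.0995, adjusted p = 7.46e-06) for *Cd8a* and 0.49 (SE 0.0896, adjusted p = 1.14e-05) for *Cd8b1*. The *Stat5b* line started higher at 0 hr, and there *Cd8a* was at 299, 295, and 328 and at 369, 347, and 377, a log2 fold change of 0.24 (SE 0.0993, adjusted p = 0.0324) that was lost without replicate 1 or 3 at 24 hr. *Cd8b1* was at 522, 512, and 559 at 24 hr in that line, and its 0.13 (SE 0.0894, adjusted p = 0.2) did not pass. At 48 hr *Cd8b1* had dropped below its start in the *Stat5b* line, from 472, 493, and 486 to 379, 359.6, and 389, with a log2 fold change of −0.36 (SE 0.0895, adjusted p = 0.00048). The 48 hr value of *Cd8a* was 0.38 in the *Stat5a* line (adjusted p = 0.00107) and −0.08 in the *Stat5b* line (adjusted p = 0.464). That of *Cd8b1* in the *Stat5a* line was 0.11 (adjusted p = 0.262), and it passed without the pair of libraries that stood apart, at 0.23 (adjusted p = 0.0128). The 3 comparisons of a line share their 0 hr libraries, so values at different times within a line are not independent.

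The second question was how cells whose STAT5A or STAT5B lacks this tyrosine differ from WT cells of the same line. Before IL-2 the genes that passed the test were lower in KI cells, and after 48 hr those that passed were higher. At 0 hr, with the same limit on the adjusted p of edgeR's quasi-likelihood test, 3 genes were below WT in *Stat5a* KI cells and 7 in their *Stat5b* counterparts, with 0 higher in either line, where 3.44 and 22.9% of all genes passed in either direction. All 9 values were below 0 in both lines, and their median log2 fold change was −0.22 and −0.34, against 0.00 and 0.01 over all genes. Without the pair of libraries that stood apart the medians were −0.17 and −0.34, and 1 and 9 genes passed, all lower. The share of all genes that passed in that fit was not computed. At 48 hr 6 genes were higher in *Stat5a* KI cells and 7 in the *Stat5b* KI, with 0 lower, where 44.3 and 63.6% of all genes passed, and 21.5 and 33.1% passed upward. The median was 0.29 and 0.30, against 0.04 and 0.10. The counts of both lines at 0 hr fell with limma on the deposited RPKM, where the test, the scaling, and the genes kept all differed. With all 48 libraries those at 0 and 48 hr fell in both lines, as given in the last section. The differences were modest. By the 2-fold rule of the study, 0 of the 9 were called at any of the 4 times in either line, where 1.04, 6.63, 4.45, and 8.78% of all genes were called at 0, 4, 24, and 48 hr for *Stat5a* and 7.98, 10.4, 16.7, and 26.3% for *Stat5b*.

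At 0 hr *Cd8b1* had the lowest adjusted p of the 9 in the *Stat5b* line. *Cd8b1* was at 472, 493, and 486 in WT cells and at 354, 343, and 351 in KI cells, with a log2 fold change of −0.47 (SE 0.0896, adjusted p = 0.000195), and *Cd8a* at 299, 295, and 328 and 246, 236, and 246, with −0.34 (SE 0.0994, adjusted p = 0.0106). For both chains all KI libraries lay below all WT libraries. *Cd3e* was at 327, 363, and 351 in WT and 261, 249.8, and 243 in KI cells, with −0.47 (SE 0.115, adjusted p = 0.00281), and *Lck* at 442, 437, and 416 and 331, 349, and 335, with −0.35 (SE 0.0974, adjusted p = 0.00728). *Zap70* and *Lat* had values of −0.32 and −0.18 that did not pass (adjusted p = 0.112 and 0.0662), and passed without the pair of *Stat5a* libraries (adjusted p = 0.000154 and 0.0101). The call of *Cd3d* was lost without replicate 2 of WT.

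Genes of the *Stat5a* line past the test at 0 hr were *Cd247*, *Cd8a*, and *Cd8b1*, with log2 fold changes of −0.31, −0.35, and −0.37 (adjusted p = 0.013, 0.0431, and 0.0181). *Cd8b1* was at 361, 386, and 474 in WT and at 311, 323, and 314 in KI cells, so the libraries did not overlap, but replicate 3 set much of the gap. Without the pair of libraries that stood apart 1 of the 9 passed, *Cd247*, at −0.26, and leaving out either replicate 3 of WT or replicate 1 of KI left 0. That of *Cd8a* was also lost without replicate 2 or 3 of KI. The other 6 genes had values of −0.14 to −0.28 that did not pass.

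At 4 and 24 hr few of the genes passed. At 4 hr KI cells of the *Stat5a* line had 2 genes higher and 1 lower, and those of the *Stat5b* line 0 higher and 3 lower, where 24.6 and 27.3% of all genes passed. In the *Stat5b* line *Cd8a* was at 272, 275, and 301 in WT and 198, 209, and 194 in KI cells, with a log2 fold change of −0.50 (SE 0.0995, adjusted p = 0.000223), and *Cd8b1* at 355, 371, and 407 and 295, 302, and 289.5, with −0.35 (SE 0.0896, adjusted p = 0.00263). The other gene lower there was *Cd247*, at −0.20 (adjusted p = 0.0375) for the kappa row, a call lost in 4 of the 6 fits that left out 1 library. The zeta row was at −0.14 (adjusted p = 0.111) in its own fit, whose scaling raised values by a median of 0.03. The 3 calls of the *Stat5a* line (*Cd3d*, *Cd3e*, and *Lat*) were lost without replicate 2 of the WT cells, and all 3 also without replicate 1 of the KI cells, where 0 genes passed. *Cd3d* and *Cd3e* were lost without replicate 2 of the KI cells too. Without the pair of libraries that stood apart 1 gene passed there, *Cd8a*, at −0.25, while 7 were lower in the *Stat5b* line. At 24 hr 2 genes were higher and 0 lower in each line, where 18.5 and 50.4% of all genes passed, and both times they were *Cd3g* and *Lat*. *Lat* was at 211, 218, and 217 in WT and 246, 265, and 256 in KI cells of the *Stat5b* line, with 0.25 (SE 0.0717, adjusted p = 0.00409), and *Cd3g* at 325, 278, and 300.4 and 376, 387, and 379 in the *Stat5a* line, with 0.34 (SE 0.0743, adjusted p = 0.00126). The *Stat5b* call of *Cd3g* was lost in 5 of the 6 fits that left out 1 library, and the *Stat5a* call of *Lat* without replicate 2 of WT or of KI. Without that pair 6 genes passed in each line at 24 hr, all 6 higher in the *Stat5a* line, and 4 higher and 2 lower (*Cd8a* and *Zap70*) in the *Stat5b* line. For these counts without the pair, at 4 and 24 hr, the share of all genes that passed was not computed.

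At 48 hr *Cd8b1* differed most. It was at 504, 406, and 409 in WT and 603, 761, and 689 in KI cells of the *Stat5a* line, and at 379, 359.6, and 389 and 647, 615, and 609 in the *Stat5b* line. No KI library overlapped a WT library, and the folds were 1.56 and 1.66, with log2 fold changes of 0.64 (SE 0.0897, adjusted p = 3.84e-07) and 0.73 (SE 0.0898, adjusted p = 7.45e-09). *Cd8a* rose less, to 370.1, 439, and 415 against 365, 305, and 306 in the *Stat5a* line and to 357, 365, and 347 against 287, 279, and 305 in the *Stat5b* line. Its log2 fold changes were 0.33 (SE 0.0993, adjusted p = 0.00698) and 0.30 (SE 0.0993, adjusted p = 0.00987).

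The 3 CD3 chains were higher together at 48 hr. *Cd3g* was at 259.6, 246, and 256 in WT and 347, 359.9, and 337 in KI cells of the *Stat5a* line, and at 248, 260.4, and 241 and 369.9, 354, and 342 in the *Stat5b* line, with log2 fold changes of 0.45 (SE 0.0744, adjusted p = 5.05e-06) and 0.51 (SE 0.0744, adjusted p = 2.43e-07). *Cd3e* was at 239.7, 245, and 231 and 361, 319, and 333 in the *Stat5b* line, with 0.50 (SE 0.115, adjusted p = 0.000269), and had 0.37 (SE 0.115, adjusted p = 0.0084) in the *Stat5a* line. *Cd3d* had 0.29 and 0.42 (adjusted p = 0.0296 and 0.00104), and its KI and WT libraries did not overlap in either line. The *Stat5a* call of *Cd3d* was lost in 4 of the 6 fits that left out 1 library, without any 1 of the WT replicates or without replicate 2 of KI.

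For *Cd247* the call differed between the kappa row and the fit that gave the zeta row. The kappa row was higher in KI cells, at 0.23 (SE 0.0712, adjusted p = 0.0084) and 0.30 (SE 0.0714, adjusted p = 0.000454), the first lost without replicate 2 of WT. The zeta row was at 151.8, 142.9, and 147.1 in WT and 155.7, 172, and 162 in KI cells of the *Stat5a* line, and at 136.4, 132.9, and 136.8 and 158.1, 153.3, and 141.9 in the *Stat5b* line, with log2 fold changes of 0.10 (SE 0.0635, adjusted p = 0.217) and 0.11 (SE 0.0636, adjusted p = 0.114). For this row every KI library lay above every WT library in both lines. The zeta fit shifted values by a median of −0.05 and −0.04, so row and scaling cannot be told apart here. At 0 hr both rows were lower in KI cells, the zeta row by −0.26 (adjusted p = 0.0185) and −0.36 (adjusted p = 8.66e-05).

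Neither kinase differed past the test at 48 hr. *Lck* was at 380.2, 370.4, and 349.7 in WT and 383, 425, and 403 in KI cells of the *Stat5a* line, with a log2 fold change of 0.14 (SE 0.0972, adjusted p = 0.266), although the libraries did not overlap. It passed without the pair of libraries that stood apart, at 0.14 (adjusted p = 0.019). Its value in the *Stat5b* line was 0.07 (SE 0.0972, adjusted p = 0.558), where they did. *Zap70* pointed the other way in the *Stat5b* line, at 100.02, 93.0, and 99.2 in WT and 86.5, 84.2, and 74.8 in KI cells, where the libraries did not overlap, but −0.25 (SE 0.147, adjusted p = 0.132) did not pass. *Zap70* also passed there (adjusted p = 0.000638) without that pair, at an unchanged −0.25. Neither library of the pair belongs to the groups compared, but the fit estimates the spread of a gene over the libraries of all groups. The part of either library in the change of p was not tested. *Lat* was higher in *Stat5b* KI cells, at 269.6, 269.8, and 255 against 229.5, 226, and 241, with 0.19 (SE 0.0716, adjusted p = 0.0195), a call lost in 4 of the 6 fits that left out 1 library (replicate 1 or 2 of WT or of KI), and had 0.08 (SE 0.0716, adjusted p = 0.381) in the *Stat5a* line.

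**Figure D3:**
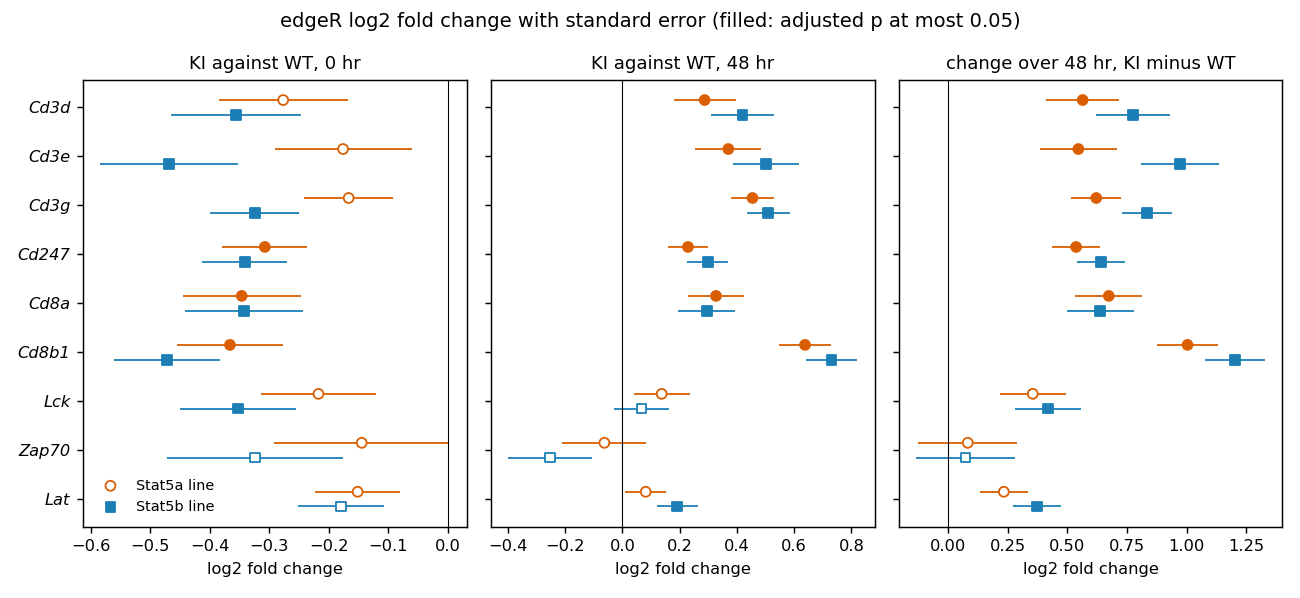
Log2 fold change (x axis) with its standard error for each gene in the Stat5a line (orange circles) and the Stat5b line (blue squares), for KI against WT at 0 hr, KI against WT at 48 hr, and the difference between KI and WT in the change over 48 hr. All points lie below 0 at 0 hr. At 48 hr filled points, which have an adjusted p of at most 0.05, lie above 0, and Cd8b1 has the largest values in the last panel, 1.00 and 1.20.

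From 0 to 48 hr the receptor and co-receptor genes gained in KI cells relative to WT cells. The difference of the changes, KI less WT, on the same libraries as the comparisons above, passed the same limit as positive for 6 of the 9 genes (*Stat5a* line) and 8 (*Stat5b* line), with 0 negative, where 28 and 49.4% of all genes passed. The median log2 difference was 0.55 and 0.64, against 0.03 and 0.08 over all genes. *Cd8b1* passed the 2-fold rule in both lines, where 6.25 and 21.4% of all genes did, with log2 differences of 1.00 (SE 0.127, adjusted p = 3.52e-07) and 1.20 (SE 0.127, adjusted p = 5.31e-10). The *Stat5a* call sat on the threshold and went under it under several other settings, among them leaving out the pair of libraries that stood apart (0.88). In KI cells *Cd8b1* rose from 311, 323, and 314 to 603, 761, and 689 and from 354, 343, and 351 to 647, 615, and 609. The CD3 chains differed by 0.56 to 0.62 for *Cd3d* and *Cd3g* and 0.55 for *Cd3e* in the *Stat5a* line, and by 0.78, 0.83, and 0.97 in the *Stat5b* line. *Cd8a* differed by 0.67 and 0.64. The zeta row of *Cd247* gave 0.36 (adjusted p = 0.0026) and 0.47 (adjusted p = 3.27e-05), and the kappa row 0.54 and 0.64. In the *Stat5b* line *Lck* and *Lat* passed, at 0.42 (SE 0.138, adjusted p = 0.0108) and 0.37 (SE 0.101, adjusted p = 0.0024). Their *Stat5a* values, 0.35 and 0.23, did not pass (adjusted p = 0.0506 and 0.084), though *Lck* did so without the pair of libraries that stood apart, at 0.31 (adjusted p = 0.00134). The *Stat5a* call of *Cd3e* was lost without replicate 3 of WT at 0 hr. *Zap70* had 0.08 and 0.07 (SE 0.208 and 0.208).

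No difference between the lines in the KI effect at 48 hr passed the test. The difference of the effects, *Stat5b* less *Stat5a*, ran from −0.19 (SE 0.208) for *Zap70* to 0.13 (SE 0.163) for *Cd3e*, and 0 of the 9 had an adjusted p of at most 0.05 in edgeR's quasi-likelihood test, 0 also by DESeq2, where 11% of all genes passed and 2.06% passed at 2-fold. At an unadjusted p under 0.05 the count was 0. With standard errors of 0.101 to 0.208, small differences between the lines were not detectable.

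The balance of the CD8 chains was followed as a ratio. With 3 or fewer libraries a group, an exact permutation test of it cannot reach 0.05. CD8 on conventional T cells is a heterodimer of the alpha and beta chains, while alpha chains can also pair with each other. The ratio of the *Cd8b1* level to the *Cd8a* level in a library, both per length, was 1.58, 1.72, and 1.58 in WT and 1.57, 1.66, and 1.58 in KI cells of the *Stat5a* line at 0 hr, which overlapped. At 4 hr it was 1.36, 1.70, and 1.38 against 1.62 and 1.55, which overlapped through the WT library that stood apart (1.70), at 24 hr 1.63, 1.52, and 1.49 against 1.83, 1.86, and 1.68, and at 48 hr 1.38, 1.33, and 1.34 against 1.63, 1.73, and 1.66. In the *Stat5b* line it was 1.58, 1.67, and 1.48 against 1.44, 1.45, and 1.43 at 0 hr, 1.30, 1.35, and 1.35 against 1.49, 1.44, and 1.49 at 4 hr, 1.42, 1.48, and 1.48 against 1.84, 1.65, and 1.84 at 24 hr, and 1.32, 1.29, and 1.27 against 1.81, 1.69, and 1.76 at 48 hr. Every KI library was above every WT library at 24 and 48 hr in both lines and at 4 hr in the *Stat5b* line, and below at 0 hr in that line. An exact two-sided permutation test gave p = 0.1 for each of these 6 comparisons, the smallest that 3 libraries against 3 allow. For the *Stat5a* line the exact test gave p = 0.5 at 0 hr and p = 0.6 at 4 hr, where 2 libraries against 3 allow no less than 0.2.

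**Figure D4:**
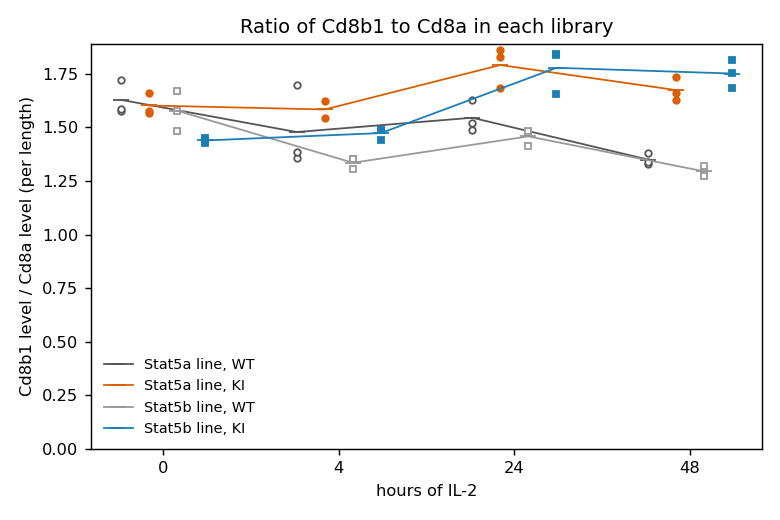
Ratio of the Cd8b1 level to the Cd8a level (y axis, from 0) in each library against hours of IL-2, with circles for the Stat5a line, squares for the Stat5b line, open symbols for WT, filled symbols for KI, and a dash and line for group means. At 48 hr the WT libraries lie between 1.27 and 1.38 and the KI libraries between 1.63 and 1.81.

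Over the 16 group means *Lat* and *Cd8b1* had the widest range, a ratio of highest to lowest of 2.46 and 2.32, followed by *Lck* (2.08), *Cd8a* (2.07), *Zap70* (1.94), *Cd3d* (1.68), *Cd3g* (1.63), *Cd3e* (1.60), and the kappa row of *Cd247* (1.46). WT cells of the *Stat5b* line at 0 hr had the highest mean (± SD, n = 3) of *Cd3d* (278 ± 21.3), *Cd3e* (347 ± 18.4), *Cd3g* (408 ± 28.6), *Lck* (432 ± 13.9), and *Lat* (352 ± 12.7). *Stat5a* KI cells at 48 hr had the highest mean of *Cd8a* (408 ± 34.9) and *Cd8b1* (684 ± 79.5). The lowest means were found at 4 hr in WT cells of the *Stat5a* line for *Cd3d*, *Lck*, *Zap70* (50.2 ± 21.2), and *Lat* (143.1 ± 15.2), a group that holds a library that stood apart. *Zap70* was highest in WT cells of the *Stat5b* line at 48 hr, at 97.4 ± 3.82. When the groups were ranked, most of the 15 pairs of neighbours had overlapping libraries, from 11 pairs for *Lat* and 12 for *Cd8b1* to all 15 for *Cd3d* and *Cd3g*, so the full order is not resolved. For *Lat* the 4 groups at 0 hr ranked first and those at 4 hr last, with gaps on both sides.

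The 9 genes did not form a single profile. Over the 16 group means (log2 CPM), the 36 pairs had Pearson correlations of −0.52 to 0.94 with a median of 0.56. *Cd8a* with *Cd8b1* (0.94) and *Lck* with *Zap70* (0.93) were the closest, and *Cd247* with *Zap70* the least alike (−0.52). These correlations share libraries and time points and are a description. The genes outside the 9 with the highest correlation to their mean profile were *Hid1* (0.96), *Adcy7* (0.94), an adenylyl cyclase, *Fam189b* (0.94), *Lime1* (0.92), an adaptor that binds LCK, and *Prkacb* (0.92), a catalytic subunit of protein kinase A. The kappa row, used for *Cd247* in all these correlations, had 0.07 with the mean profile of the 9.

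RNA of other cell types moved with the groups. In these bulk libraries fewer cells of a type and less RNA per cell cannot be told apart. The summed level of 7 B-cell markers, of which *Cd79a* was the most abundant and all 7 were detected, was 87.4, 81.6, and 93.5 in WT and 318, 326, and 329 in KI cells of the *Stat5b* line at 0 hr, and 17.5, 15.1, and 17.7 and 154.6, 153.7, and 164 at 48 hr. In the *Stat5a* line it was 226, 247, and 86.7 and 451, 374, and 408 at 0 hr, and 52.3, 41.8, and 17.8 and 139.9, 129.5, and 155.4 at 48 hr. The B-cell marker sums of KI cells were above those of WT cells at both times in both lines. The sum of the 9 genes was 2644, 2826, and 2744 in WT and 2166, 2154, and 2094 in KI cells of the *Stat5b* line at 0 hr, and 2076, 2052, and 2084 and 2796, 2706, and 2592 at 48 hr. The part of the other cells in the results was not tested.

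The 7 myeloid markers found in the files (*Lyz2* the most abundant) summed to 50.3 in WT and 191 in KI cells of the *Stat5b* line at 0 hr and to 4.71 and 84.8 at 48 hr, as means of 3 libraries. The 4 CD4+ T-cell markers (*Cd4* the most abundant) summed to 17.6 and 37.4 and then to 4.89 and 21.4. CD4+ T cells carry the CD3 chains, *Lck*, *Zap70*, and *Lat* as well, and *Cd4* itself at 48 hr was at 0.917, 0.750, and 1.05 in WT and 10.3, 10.3, and 9.99 in KI cells of that line, while *Cd8a* was at 287, 279, and 305 and 357, 365, and 347. NK-cell markers (*Tyrobp* the most abundant, with *Ncr1* at 2.10, 2.39, and 2.77 and 11.5, 10.4, and 8.30 at 48 hr) summed to 44.1 and 84.2. Of those 4, *Ncr1* and *Tyrobp* were higher in KI cells at 48 hr, *Klrb1c* was lower in both lines, at −0.66 (SE 0.201, adjusted p = 0.00693) and −1.38 (SE 0.206, adjusted p = 3.79e-07), and *Fcer1g* did not pass. In the *Stat5b* line at 48 hr dendritic markers (*Siglech* the most abundant) summed to 2.64 and 16.6, and the 3 erythroid markers used (*Alas2* the most abundant) to 0.0930 and 1.48. At 48 hr in the *Stat5a* line the sums were 7.05 and 40.8 for myeloid, 6.54 and 16.4 for CD4+, 60.5 and 85.8 for NK, 3.66 and 10.6 for dendritic, and 0.0852 and 0.127 for erythroid markers.

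**Figure D5:**
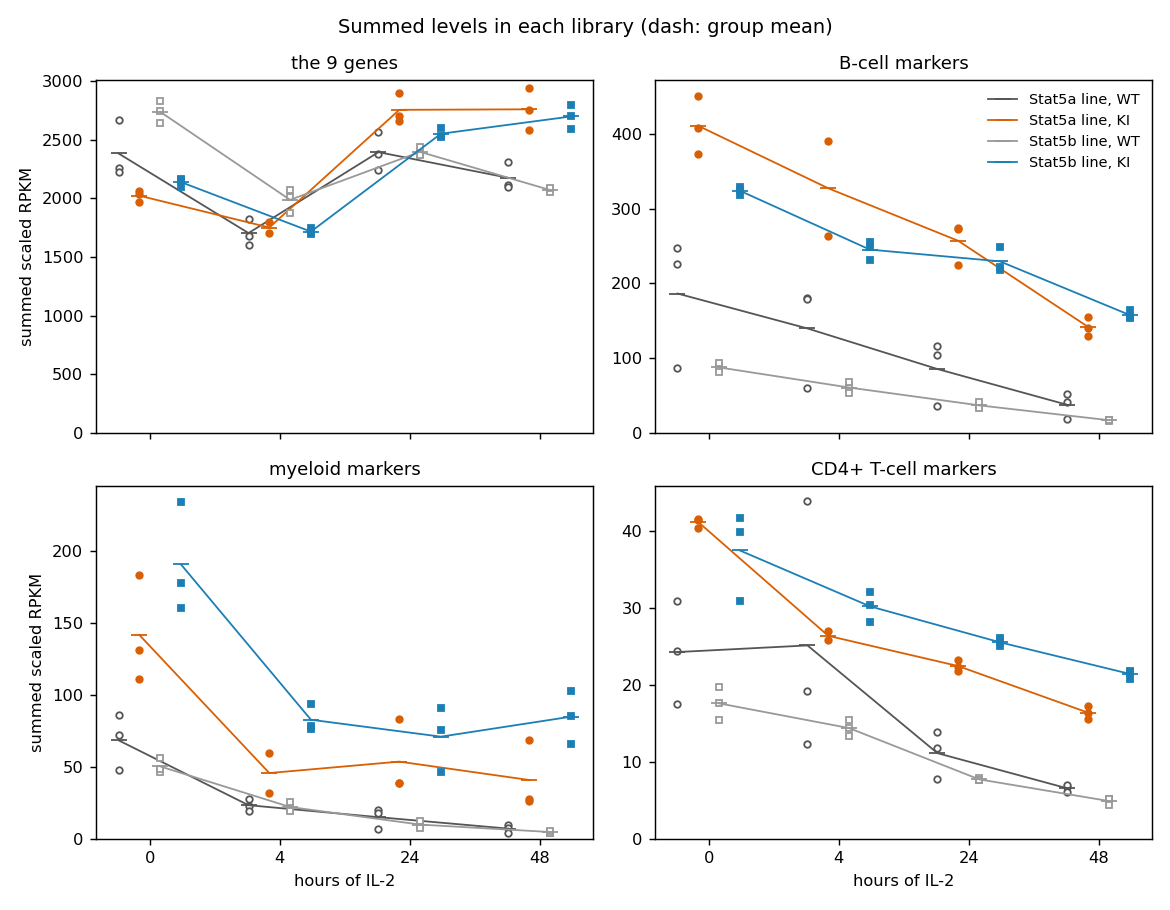
Summed scaled RPKM (y axis, from 0) of the 9 genes, the B-cell, the myeloid, and the CD4+ T-cell markers in each library against hours of IL-2, with circles for the Stat5a line, squares for the Stat5b line, open symbols for WT, filled symbols for KI, and a dash and line for group means. The mean marker sums of KI are above those of WT at every time and lower at 48 than at 0 hr. The sum of the 9 genes in KI cells is below WT at 0 hr and above it at 48 hr.

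A wider list of 68 genes of the TCR pathway, all tested, gave the setting. With IL-2 at 48 hr in WT cells 16 of them were higher and 42 lower (*Stat5a* line), and 12 higher and 39 lower (*Stat5b* line), with an adjusted p of at most 0.05, and by the 2-fold rule 2 rose and 6 fell, and 0 rose and 9 fell. Of all genes 34.1 and 33.1% were higher and 37.7 and 36.8% lower, and 36.6 and 35.3% passed the 2-fold rule. The fall was widest in the second messengers and downstream enzymes, with 16 and 15 of 20 lower (median −0.45 and −0.57), and in the T lineage transcription factors, with 8 and 7 of 10 lower (−0.60 and −0.68), against −0.12 and −0.13 over all genes. Kinases and phosphatases went both ways, with 6 and 6 of 13 higher and 5 and 4 lower (median 0.08 and 0.17). *Cd28*, the main costimulatory receptor, was at 115.2, 134.6, and 103.7 at 0 hr and 23.5, 26.0, and 28.02 at 48 hr in the *Stat5a* line, with log2 fold changes of −2.19 (SE 0.135, adjusted p = 6.86e-17) and −1.87 (SE 0.134, adjusted p = 3.77e-15). *Trat1*, a transmembrane adaptor of the TCR complex, fell by 2.46 (SE 0.202, adjusted p = 1.86e-13) and 2.30 (SE 0.204, adjusted p = 1.5e-12) on the log2 scale, and *Syk*, the ZAP70 relative that B cells use, by 2.97 (SE 0.285, adjusted p = 1.26e-11) and 3.25 (SE 0.298, adjusted p = 3.44e-12). All 7 B-cell markers fell in the same comparisons, with medians of −2.69 and −3.01, and their part in the fall of *Syk* was not tested. The pair that rose in the *Stat5a* line was *Txk*, a TEC family kinase, from 26.3, 28.3, and 32.3 to 67.9, 64.8, and 67.5, and *Ptpn7*, a phosphatase of MAP kinases, from 21.8, 25.1, and 30.0 to 54.3, 62.2, and 55.95, with 1.20 (SE 0.0894, adjusted p = 1.34e-14) and 1.16 (SE 0.1002, adjusted p = 7.47e-13).

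In KI against WT cells at 48 hr 26 of the 68 were higher and 5 lower in the *Stat5a* line and 29 higher and 13 lower in the *Stat5b* line, and by the 2-fold rule 2 and 5 rose and 0 fell. Of all genes 21.5 and 33.1% were higher and 22.8 and 30.5% lower, so that 44.3 and 63.6% passed in either direction and 8.78 and 26.3% by the 2-fold rule. T lineage transcription factors were higher in 6 of 10 in each line (0 and 1 lower, median 0.34 and 0.53), adaptors in 8 and 9 of 19 (1 and 3 lower), second messengers and downstream enzymes in 9 and 9 of 20 (2 and 2 lower), surface modulators in 1 and 3 of 6 (0 and 1 lower), and kinases and phosphatases in 2 of 13 in each line (2 and 6 lower). *Trat1* rose most apart from *Syk*, from 3.78, 2.25, and 2.93 in WT to 8.44, 8.79, and 9.50 in KI cells of the *Stat5a* line and from 2.00, 3.39, and 2.64 to 13.9, 11.5, and 12.2 in the *Stat5b* line, with 1.57 (SE 0.200, adjusted p = 5.72e-08) and 2.23 (SE 0.203, adjusted p = 7.42e-12). *Dgka*, a lipid kinase that removes diacylglycerol downstream of LAT, was at 124.2, 124.6, and 124.4 in WT and 308, 269, and 313 in KI cells of the *Stat5b* line, with 1.25 (SE 0.122, adjusted p = 3.35e-11). *Syk* had 1.82 (SE 0.277, adjusted p = 1.51e-06) and 3.18 (SE 0.297, adjusted p = 1.3e-11), at 1.19, 1.23, and 1.27 in WT and 11.2, 10.6, and 11.6 in KI cells of the *Stat5b* line, and moved with the B-cell markers above, whose part in it was not tested.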

How the data were processed

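Per the labels and the methods, splenic CD8+ T cells were isolated with a kit, and libraries were made from 100 ng total RNA with an mRNA kit. The authors mapped the RNA-seq reads to mm10 with TopHat2 2.0.11, kept uniquely mapped reads, and counted them per RefSeq transcript. The paper gives Bowtie2 2.2.6 for the ChIP-seq reads. SAMtools 0.1.8, bedtools 2.25.0, and edgeR are also in the submitters' processing notes. The counting program and its use of strand are not given in the sources used here, so overlapping genes cannot be told apart by strand. The deposited count values are raw reads per transcript row, and the deposited RPKM values divide them by length and by all mapped reads. There were 31682 rows for 23992 symbols, of which 4343 had more than 1 row.

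The longest row per symbol was used. Replicate 3 of *Stat5a* KI cells at 4 hr was left out, leaving 47 libraries. The counts were fitted in R 4.3.3 with edgeR 4.0.16 (TMM scaling, filterByExpr with a minimum count of 10, quasi-likelihood F-tests, 1 mean per group, Benjamini-Hochberg adjustment over 15566 genes). Calls needed an adjusted p of at most 0.05, with or without a change of at least 2-fold. DESeq2 1.42.0 and limma 3.58.1 (log2 of RPKM plus 1 or 0.1, rows with at least 1 RPKM in 3 libraries) gave alternatives, and fits without 1 library kept the genes and dispersion trend of the whole fit. Tables and figures were made with Python 3.11.15, pandas 2.3.3, numpy 2.4.6, and matplotlib 3.10.9, and sequences were read with samtools 1.23.1. Scripts were tested on simulated data. Depth behind a member was never under 1004 reads in a library, and a gene at no more than 3 reads in every library would have been taken as not detected. Replicates of a group differed by more than sampling noise in all pairs, with a chi-square per gene of 4.62 to 203.6 among the 47 libraries.

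The members and gene lists were chosen with earlier results of these data known. One marker gene is not reported here and was left out of the marker sums. The genes named from the wider pathway were, in each comparison at 48 hr, the 3 that rose most and the 3 that fell most among those called at 2-fold. Genes like the members were the 5 with the highest correlation of group means with the members' mean profile. Deviations of libraries with the same replicate number were positively correlated in *Stat5a* line WT cells between 0 and 24 hr (0.206, 0.273, and 0.419) and between 0 and 48 hr (0.166, 0.117, and 0.192). All 3 correlations were positive in other comparisons between times too. They were 0.185, 0.066, and 0.128 in *Stat5a* KI cells between 0 and 48 hr. In *Stat5b* line WT cells between 0 and 24 hr they were 0.142, 0.053, and 0.123. Between KI and WT cells of the same line and time, no comparison had only positive correlations. The main fit did not use replicate numbers.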

Additional observations from a re-analysis of the deposited data

Results flagged for a closer look

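The change from 0 to 48 hr of IL-2 differed between KI and WT cells of the *Stat5a* line, by a test of the difference itself, for 6 of the 9 genes. Of all genes tested 28% passed in that line. The log2 differences, KI less WT, were 0.56 for *Cd3d*, 0.55 for *Cd3e*, 0.62 for *Cd3g*, 0.54 for the kappa row of *Cd247*, 0.67 for *Cd8a*, and 1.00 for *Cd8b1*. In the *Stat5b* line 8 of the 9 differed by the same test, where 49.4% of all genes did. The differences were 0.78 for *Cd3d*, 0.97 for *Cd3e*, 0.83 for *Cd3g*, 0.64 for the kappa row of *Cd247*, 0.64 for *Cd8a*, 1.20 for *Cd8b1*, 0.42 for *Lck*, and 0.37 for *Lat*. The B-cell marker sums were higher in KI cells at both times, and their part in these differences was not tested. No group held enough libraries for a test of single outlying samples.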

How the results depend on the processing

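Counts below are of the 9 genes. Without the 2-fold requirement the genes past the test with IL-2 in WT cells at 4, 24, and 48 hr numbered 7, 5, and 5 (*Stat5a* line) and 6, 7, and 7 (*Stat5b* line). For KI against WT at 0, 4, 24, and 48 hr they numbered 3, 3, 2, and 6 and 7, 3, 2, and 7, and for the difference of the changes 6 and 8. The remaining alternatives are set against these. With all 48 libraries the counts at any fold fell to 2 and 1 (IL-2 at 24 and 48 hr, *Stat5a*), to 3, 1, and 3 (4, 24, and 48 hr, *Stat5b*), to 0, 1, 0, and 0 (KI, *Stat5a*), to 1, 0, 0, and 3 (KI, *Stat5b*), and to 0 and 4 (difference of the changes), and *Lat* at 4 hr in *Stat5a* KI cells reversed to −0.15. Limma with either pseudocount called 2 genes at 2-fold for IL-2 at 4 hr in the *Stat5a* line, and at any fold 3 for 24 hr in that line, 4 for 24 hr and 4 for 48 hr in the *Stat5b* line, 0 for *Stat5a* KI cells at 0 hr, and 4, 0, and 1 for *Stat5b* KI cells at 0, 4, and 24 hr. *Cd247* at 24 hr in WT cells of the *Stat5b* line reversed to 0.015 and 0.016 there. Fitting only the groups compared gave 3 (IL-2 at 4 hr, *Stat5a*), 0, 0, and 4 (KI at 0, 4, and 24 hr, *Stat5a*), and 6 and 6 (KI at 4 and 24 hr, *Stat5b*). Without the pair of libraries that stood apart, an alternative chosen after seeing the data, the KI counts were 1, 1, and 6 at 0, 4, and 24 hr in the *Stat5a* line and 7 and 6 at 4 and 24 hr in the *Stat5b* line, and *Cd8a* at 4 hr of IL-2 in the *Stat5a* line reversed to 0.18. Scaling by total count alone gave 4 for *Stat5a* KI cells at 24 hr and 4 and 6 for *Stat5b* KI cells at 0 and 24 hr, and called 2 at 2-fold for the difference of the changes in the *Stat5b* line. It raised the median of all genes in *Stat5b* KI cells at 48 hr by 0.22, to 0.32, and that of the 9 to 0.52. No filter on low counts gave 4 for IL-2 at 24 hr and 1 for KI cells at 24 hr in the *Stat5b* line, and DESeq2 gave 4 for *Stat5a* KI cells at 24 hr. With the most counted row of every symbol, which changed the scaling too, *Cd247* at 48 hr of IL-2 in the *Stat5a* line reversed to 0.029. The call of *Cd8b1* at 2-fold for the difference of the changes in the *Stat5a* line dropped to 0 with all 48 libraries, DESeq2, DESeq2's size factors, no filter, only the groups compared, the most counted row, or without the pair of libraries. The causes of these changes were not tested.

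Leaving out 1 library at a time gave, at 2-fold, 1 to 2 genes for IL-2 at 4 hr in the *Stat5a* line (2, with *Lck*, without replicate 1 or 3 of the WT cells at 4 hr), 0 to 1 and 1 to 2 for the difference of the changes, and no change in the others. In the *Stat5a* line 8 of the 12 libraries of that difference each took the call of *Cd8b1* away. At any fold the ranges were 6 to 8, 3 to 4, and 4 to 5 (IL-2 at 4, 24, and 48 hr, *Stat5a*), 5 to 6, 3 to 6, and 6 to 7 (*Stat5b*), 0 to 4, 0 to 4, 1 to 3, and 4 to 6 (KI at 0, 4, 24, and 48 hr, *Stat5a*), 6 to 8, 2 to 3, 1 to 2, and 6 to 7 (*Stat5b*), and 5 to 8 and 8 to 8 (difference of the changes). The lowest counts came without replicate 3 of WT or replicate 1 of KI cells at 0 hr and without replicate 1 of KI cells at 4 hr (0 each), all in the *Stat5a* line. *Cd3e* at 4 hr of IL-2 in that line was 0.26 without replicate 1 and reversed to −0.20 without replicate 2.

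With the replicate number as a block no call changed, and 7 genes passed for IL-2 at 24 hr in the *Stat5b* line as before. Where leaving out a library left 1 in *Stat5a* KI cells at 4 hr, that library was assumed to vary like those of the other groups. Each of the 9 genes had at least 1004 reads in every library, and the 2 or 3 libraries per group limit the precision.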
